A study of Homo sapiens with 11 samples.

Results

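The genes described here are 10 members of the JNK and p38 stress kinase pathways: the MAP2K kinases MAP2K3, MAP2K4, MAP2K6 and MAP2K7, the JNKs MAPK8 and MAPK9, the p38 kinase MAPK14, and the JIP scaffolds MAPK8IP1, MAPK8IP2 and MAPK8IP3. They were found by matching the Ensembl identifiers of the count tables to GENCODE release 29 symbols, and all 10 were present among the 58735 genes listed. MAP2K6 and MAPK8IP2 were chosen by their counts, which changed after MYEOV siRNA, so their siRNA values are given as a description with no test. The other 8 were taken by name as members of the same pathways.

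The data are poly(A) RNA-seq of AsPC-1 and PANC-1, established human lines of pancreatic carcinoma, AsPC-1 from ascites and PANC-1 from a primary tumour. The 4 groups are AsPC-1 with MYEOV siRNA (3 libraries), AsPC-1 control (2), PANC-1 with MYEOV siRNA (3) and PANC-1 control (3). RNA of the siRNA groups was taken 48 hours after transfection, and the time of the controls is not settled here. The series text speaks of a knockout, whereas the treatment protocol describes transfection with siRNA. The labels call the controls wild type and untreated while the protocol also lists a negative-control siRNA, so what the control cells received is not settled here. The protocol names a pair of MYEOV siRNAs, and the labels do not say which library had which. No label says that the libraries of a group are separate cultures; the p-values therefore cover only library-to-library spread, and that spread may be technical.

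JNK and p38 are mitogen-activated protein kinases that respond to stress and inflammatory signals. Each stands at the end of a cascade in which a MAP3K phosphorylates a MAP2K, and the MAP2K phosphorylates the kinase on a threonine and a tyrosine of its activation loop. MAP2K3 and MAP2K6 (MKK3 and MKK6) act on p38, MAP2K7 (MKK7) acts on JNK, and MAP2K4 (MKK4) acts chiefly on JNK and can also act on p38. JIP scaffolds hold MAP3K, MAP2K and JNK together. MAP2K4 lies on the short arm of chromosome 17 and is known as a tumour suppressor gene that is inactivated in a fraction of pancreatic carcinomas.

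The libraries held 12113093 to 15066456 counts, with 22050 to 24025 genes detected in each. MYEOV, the targeted gene, fell in both lines. It was at 42.9, 50.7 and 48.1 CPM in AsPC-1 siRNA libraries, against 131 and 129.7 CPM in AsPC-1 controls (35.9% of control; edgeR quasi-likelihood adjusted p = 1.95e-16). In PANC-1 it was at 37.7, 35.8 and 39.8 CPM in siRNA libraries, against 75.1, 68.6 and 64.4 CPM in controls (54.4% of control; edgeR adjusted p = 4.19e-06). CPM here are counts scaled to the TMM-normalised size of each library over all 11 libraries. Log2 ratios are the fitted log2 fold changes of siRNA over control or of AsPC-1 over PANC-1, relative to the bulk of genes. All 5 epithelial markers were detected, with a summed level of 18500 to 19000 CPM in AsPC-1 siRNA libraries and 18100 to 18300 CPM in AsPC-1 controls, and of 1930 to 1960 CPM in PANC-1 siRNA libraries and 2260 to 2530 CPM in PANC-1 controls. The summed leukocyte markers reached at most 0.74 CPM, with CD3E at 0 in every library and PTPRC at 0 in every group but the PANC-1 controls. The summed fibroblast markers stood at 105 to 109 CPM in AsPC-1 siRNA libraries and 296 to 310 CPM in AsPC-1 controls, and at 41.7 to 43.3 CPM in PANC-1 siRNA libraries and 30.3 to 37.5 CPM in PANC-1 controls. In AsPC-1 this was nearly all LUM, which encodes lumican, at 105 ± 1.7 CPM with siRNA (SD, n = 3) and 302 ± 9.9 CPM in controls (SD, n = 2). Its part in the AsPC-1 values that follow was not tested. In bulk RNA, fewer cells with a transcript and less of it per cell cannot be told apart.

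Earlier work on these files noted the 7-base word CTCATGT in the 3′ UTRs of genes that fell with the siRNA. None of the 10 members carried CTCATGT in an annotated 3′ UTR, against 14.1% of the 11945 AsPC-1 genes tested that have a 3′ UTR and 14.2% of 12516 such genes in PANC-1. Its 6-base core TCATGT occurred in 5 of 10 members, against 41.4% of such genes for AsPC-1 and 41.6% for PANC-1. The sense strand of each 3′ UTR was searched, and every CTCATGT also counts as a TCATGT. One site is shown for each of the 5 genes, the one nearest the stop codon of the longest 3′ UTR, since MAP2K4 and MAPK14 were the 2 members called lower with siRNA. Sequences are of the transcribed strand, 5′ to 3′, from the GENCODE 29 annotation of GRCh38, with the core in capitals.
MAP2K4: ttcgtttccaTCATGTctgtatactc
MAPK14: tcataggcggTCATGTgtgcatgtga
MAP2K6: ttacacacctTCATGTgattctgatg
MAPK8: aagagggattTCATGTaatgaactag
MAPK9: tcagccttagTCATGTtacttaacgt
The cores lie at chr17:12141392-12141397 (plus strand, MAP2K4), chr6:36109185-36109190 (plus, MAPK14), chr17:69544039-69544044 (plus, MAP2K6), chr10:48436499-48436504 (plus, MAPK8) and chr5:180233263-180233268 (minus, MAPK9). The MAP2K4 core starts at base 132 of a 3′ UTR of 2570 bases, and the MAP2K6 core starts at base 2286 of one of 12108 bases. MAP2K3, MAP2K7 and the 3 scaffolds carried neither word. A match is a description of the sequence and shows no binding.

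**Figure D1:**
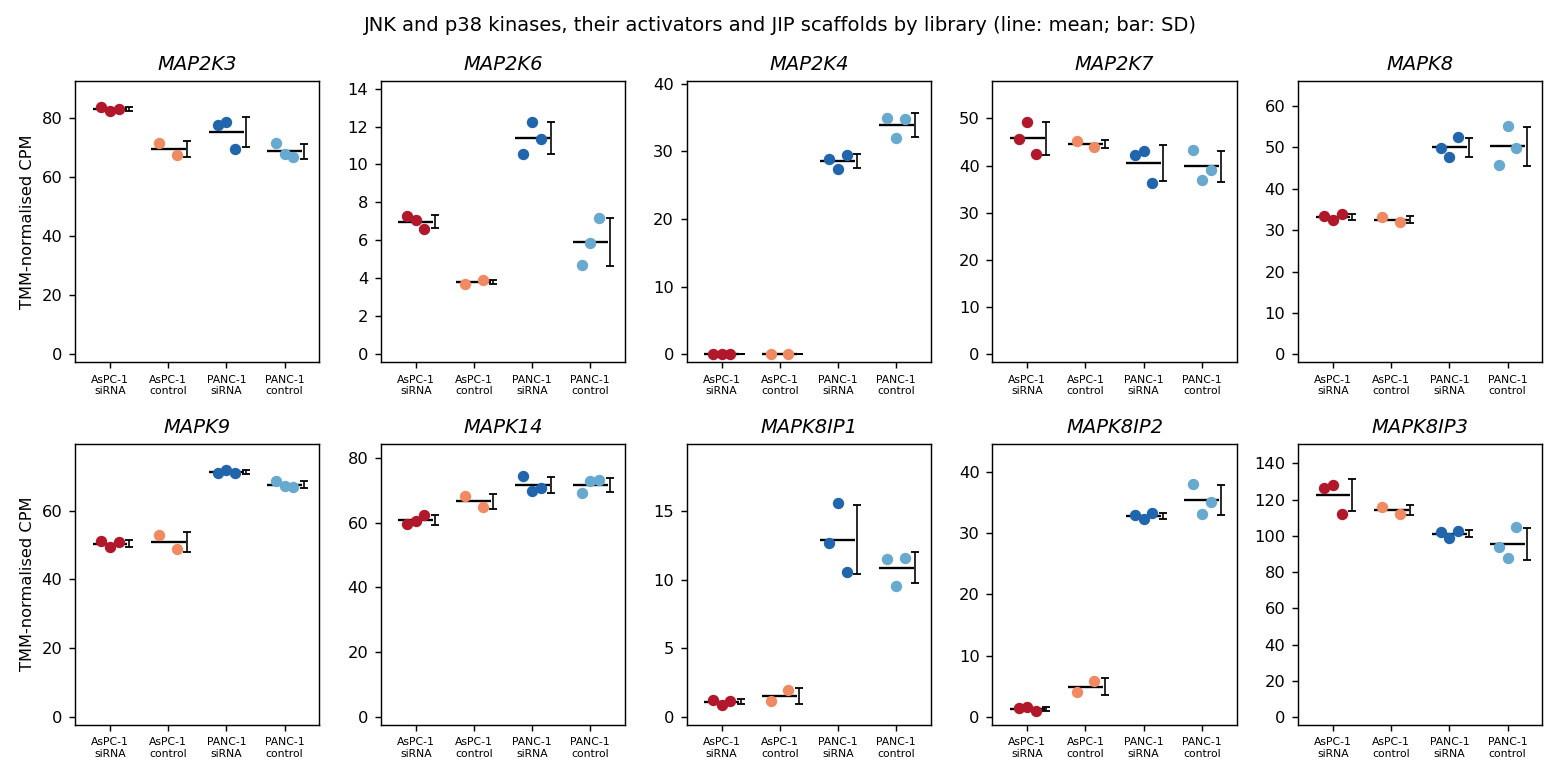
Level of each of the 10 genes in TMM-normalised CPM (vertical axis) in every library (points), by line and treatment, with the group mean (line) and SD (bar; n = 3 per group, 2 for AsPC-1 controls). MAP2K6 was higher with MYEOV siRNA in both lines, MAPK8IP2 was lower in AsPC-1, and MAP2K4 had no count in the 5 AsPC-1 libraries.

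MAP2K6 was the member with the largest increase after MYEOV siRNA, and it was higher with siRNA in both lines. The gene (ENSG00000108984; GRCh38 chr17:69414698-69553861, plus strand) encodes MKK6, an activator of p38. It was at 7.28, 7.07 and 6.62 CPM in AsPC-1 siRNA libraries, against 3.72 and 3.90 CPM in AsPC-1 controls. PANC-1 siRNA libraries had 10.55, 12.2 and 11.4 CPM, against 4.69, 5.87 and 7.20 CPM in PANC-1 controls. Every siRNA library lay above every control library of its line. So did those of 28.9% of all genes tested in AsPC-1 and 13.7% in PANC-1, and MAP2K6 was picked on these same libraries. The ratio of siRNA to control was 1.82-fold in AsPC-1 (log2 0.86) and 1.91-fold in PANC-1 (log2 0.94), and the lines differed by -0.06 on the log2 scale (AsPC-1 minus PANC-1). That difference ran from -0.23 to 0.09 when 1 library was left out. MAP2K6 was picked as line-specific, while its siRNA libraries were higher in both lines; the difference is given with no test. These levels rest on 80 to 87 counts in AsPC-1 siRNA libraries and 44 to 49 in AsPC-1 controls, and on 149 to 172 in PANC-1 siRNA libraries and 72 to 114 in PANC-1 controls. The PANC-1 controls spread the most, with an SD of 1.3 CPM around a mean of 5.92 CPM.

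MAP2K3 rose in AsPC-1 by less. The gene (ENSG00000034152; GRCh38 chr17:21284672-21315240, plus strand) encodes MKK3, the paralog of MKK6. It was at 83.7, 82.6 and 83.1 CPM in AsPC-1 siRNA libraries, against 71.6 and 67.7 CPM in AsPC-1 controls. The groups did not overlap, as in 28.9% of all genes tested in AsPC-1 with siRNA above control, and the log2 ratio was 0.24 (SE 0.05; edgeR quasi-likelihood adjusted p = 0.000564). It stayed past the threshold in 13 of 13 alternative fits. The level in PANC-1 was 77.9, 78.6 and 69.7 CPM in siRNA libraries, against 71.6, 68.1 and 66.8 CPM in controls. There the groups overlapped, with a log2 ratio of 0.13 (SE 0.06; edgeR adjusted p = 0.232). The difference between the lines was 0.12 (SE 0.09; edgeR adjusted p = 0.519), so a larger response in AsPC-1 was not shown.

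Per length of exon, MAP2K3 far exceeded MAP2K6. MAP2K3 stood at 55.3 to 55.7 TPM in AsPC-1 siRNA libraries and 47.4 to 48.1 TPM in AsPC-1 controls, where MAP2K6 stood at 1.0 to 1.1 and 0.568 to 0.620 TPM. MAP2K6 made up 1.87 ± 0.086% of the summed TPM of MAP2K3 and MAP2K6 in AsPC-1 siRNA libraries (SD, n = 3), against 1.23 ± 0.088% in AsPC-1 controls (SD, n = 2). In PANC-1 its share was 3.32 ± 0.30% with siRNA and 1.93 ± 0.46% in controls (SD, n = 3 each). MKK3 transcripts thus stayed the bulk of the p38 activator pair in every group. The size of the share depends on the length used: MAP2K6 has a union exon length of 16655 bases, mostly 3′ UTR, and with no division by length its share of the counts was 7.75% and 5.19% in AsPC-1 siRNA and control libraries, and 13.1% and 7.94% in those of PANC-1.

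MAP2K4 gave no count in any AsPC-1 library. The gene (ENSG00000065559; GRCh38 chr17:12020824-12143830, plus strand) encodes MKK4. The 3 AsPC-1 siRNA libraries and the 2 AsPC-1 controls all had 0 counts, whereas the PANC-1 siRNA libraries had 471, 381 and 387 and the PANC-1 controls 537, 435 and 552. With a floor of 3 counts per library, which is 0.247 CPM on average in AsPC-1 controls against 33.9 CPM in PANC-1 controls, MAP2K4 was at least 138-fold lower in AsPC-1 than in PANC-1 controls (edgeR adjusted p = 2.18e-16). Between the siRNA groups it was at least 115-fold lower in AsPC-1. The floor covers counting error only.

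MAP2K4 also fell with MYEOV siRNA in PANC-1, at the edge of the threshold. It was at 28.9, 27.4 and 29.5 CPM in PANC-1 siRNA libraries, against 35.0, 31.9 and 34.9 CPM in PANC-1 controls. All 3 siRNA libraries lay below all 3 controls, as for 14.7% of all genes tested in PANC-1, at 84.2% of control (log2 ratio -0.25, SE 0.07; edgeR adjusted p = 0.04997). The call was lost in 10 of 14 alternative fits, with an adjusted p of up to 0.168, while the log2 fold change stayed between -0.29 and -0.22.

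The genes around MAP2K4 on chromosome 17 were examined after its counts had been seen. ZNF18, a zinc finger gene that starts 43.4 kb before MAP2K4, had 0 counts in all 5 AsPC-1 libraries and 99 to 179 in the PANC-1 libraries. ARHGAP44, which starts 768.7 kb after the start of MAP2K4, had 0 to 3 counts in AsPC-1 and 20 to 22 in PANC-1. The other protein-coding genes close by had few or no counts in either line: SHISA6 and MYOCD had 0 counts in all 11 libraries, and DNAH9 had 0 in AsPC-1 and at most 1 in PANC-1. Further out, TMEM238L had 1 to 3 counts in AsPC-1 and 0 in PANC-1. Counts resumed on either side. TMEM220 had 22 to 32 in AsPC-1 and 54 to 87 in PANC-1, SCO1 beyond it had 740 to 869 and 726 to 917, and ELAC2 on the other side had 859 to 1113 and 1287 to 1807. The 33 annotated genes between TMEM220 and ELAC2 lie over 2262.1 kb, with MAP2K4 included. They summed to 46 counts over the 5 AsPC-1 libraries and 3792 over the 6 PANC-1 libraries. Most of the PANC-1 sum came from MAP2K4 (2763) and ZNF18 (876). Of the 33 genes, 8 had a count in AsPC-1 and 11 in PANC-1. DNA was not measured in these libraries, so whether the locus is present in this AsPC-1 stock was not tested.

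**Figure D2:**
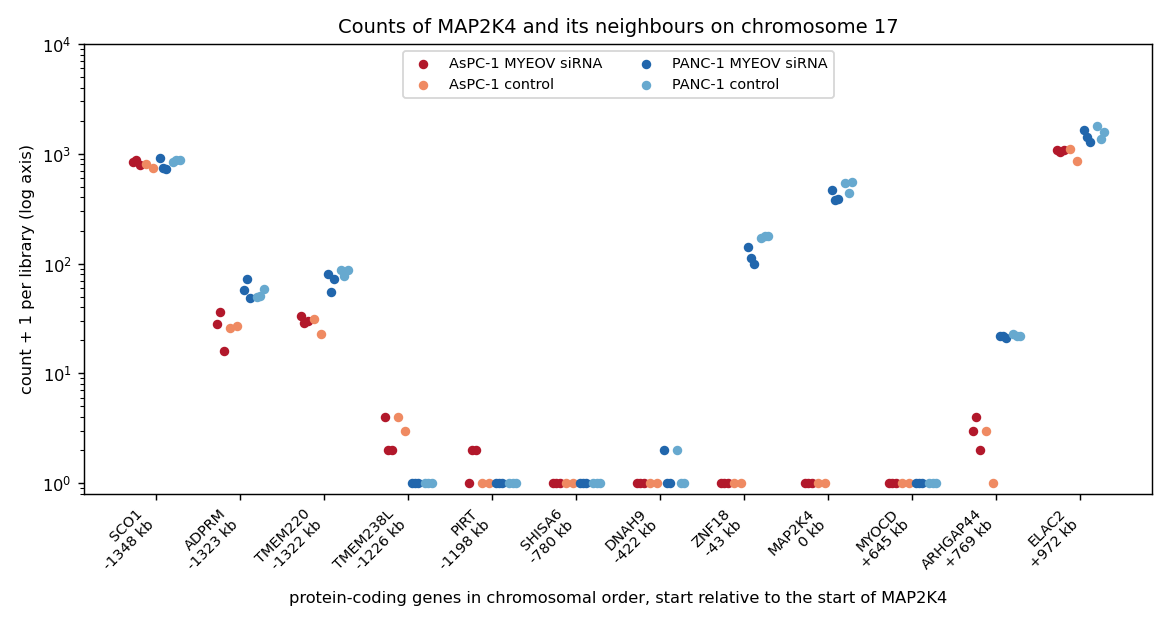
Count plus 1 per library (log axis) of protein-coding genes in chromosomal order around MAP2K4, with the distance of each gene's start from that of MAP2K4 in kilobases. ZNF18 and MAP2K4 were at 0 in all 5 AsPC-1 libraries and at 99 or more in every PANC-1 library, while SCO1 and ELAC2 had over 700 counts in both lines.

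MAP2K7, which encodes the other JNK activator MKK7, was expressed in both lines with no call after siRNA in either. The gene (ENSG00000076984; GRCh38 chr19:7903843-7914478, plus strand) was at 45.6, 49.2 and 42.4 CPM in AsPC-1 siRNA libraries, against 45.2 and 43.9 CPM in AsPC-1 controls (log2 ratio 0.02, SE 0.07; edgeR adjusted p = 0.83). In PANC-1 it was at 42.2, 43.2 and 36.3 CPM in siRNA libraries, against 43.4, 37.0 and 39.1 CPM in controls (log2 ratio 0.03, SE 0.08; edgeR adjusted p = 0.895). The groups overlapped in both lines. Since MAP2K4 was at 0 in AsPC-1, MAP2K7 gave all of the counts of the pair there. In PANC-1, MAP2K4 made up 38.9 ± 3.0% of their summed TPM with siRNA and 43.4 ± 1.3% in controls (SD, n = 3 each). An exon of MAP2K7 overlaps the antisense gene AC010336.4, which had 0 counts in every library.

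The JNKs MAPK8 (JNK1) and MAPK9 (JNK2), the kinases that phosphorylate JUN, were not called after siRNA in either line. MAPK8 (ENSG00000107643; GRCh38 chr10:48306639-48439360, plus strand) was at 33.4, 32.5 and 33.8 CPM in AsPC-1 siRNA libraries, against 33.1 and 31.9 CPM in AsPC-1 controls. PANC-1 siRNA libraries had 49.9, 47.7 and 52.4 CPM, against 45.7, 55.2 and 49.7 CPM in PANC-1 controls. In each line the groups overlapped, with log2 ratios of 0.02 (SE 0.07; edgeR adjusted p = 0.888) in AsPC-1 and of -0.005 (SE 0.08; edgeR adjusted p = 0.979) in PANC-1.

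MAPK9 (ENSG00000050748; GRCh38 chr5:180233143-180292099, minus strand) was the steadiest member, with a within-group SD of 0.037 on the log2 scale. It was at 51.05, 49.3 and 50.95 CPM in AsPC-1 siRNA libraries, against 52.9 and 48.7 CPM in AsPC-1 controls (log2 ratio -0.03, SE 0.06; edgeR adjusted p = 0.765). The level in PANC-1 was 71.1, 71.8 and 70.9 CPM in siRNA libraries, against 68.7, 67.1 and 66.8 CPM in controls. All PANC-1 siRNA libraries lay above all controls there, and 13.7% of all genes tested in PANC-1 did so too; the log2 ratio of 0.08 (SE 0.05) was not called (edgeR adjusted p = 0.447). MAPK8 made up 37.9 ± 0.18% of the summed TPM of MAPK8 and MAPK9 in AsPC-1 siRNA libraries and 37.2 ± 0.75% in AsPC-1 controls, and 39.4 ± 1.3% and 40.7 ± 2.6% in those of PANC-1 (SD, n = 3, 2, 3 and 3). JNK2 was the more abundant of the pair per length in every group.

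MAPK14 (p38α), the main p38 kinase of most tissues, fell slightly in AsPC-1. The gene (ENSG00000112062; GRCh38 chr6:36027677-36111236, plus strand) was at 59.5, 60.6 and 62.4 CPM in AsPC-1 siRNA libraries, against 68.2 and 64.8 CPM in AsPC-1 controls. The groups did not overlap, as in 25.4% of all genes with siRNA below control, and the fall was 0.15 on the log2 scale (SE 0.05; edgeR adjusted p = 0.0423). The call was lost in 7 of 13 alternative fits, among them DESeq2 (adjusted p = 0.19) and the fits without either of the AsPC-1 controls (edgeR adjusted p = 0.3 without control 1 and 0.0842 without control 2). In PANC-1 it was at 74.3, 69.8 and 70.7 CPM in siRNA libraries, against 69.2, 72.8 and 73.0 CPM in controls, with overlapping groups (edgeR adjusted p = 0.994). The difference between the lines was -0.13 (SE 0.08; edgeR adjusted p = 0.461).

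MAPK8IP2 was the member with the largest decrease after siRNA, and the decrease was seen in AsPC-1. The gene (ENSG00000008735; GRCh38 chr22:50600685-50613981, plus strand) encodes JIP2, a scaffold known mainly from brain and pancreatic islets. It was at 1.51, 1.64 and 0.992 CPM in AsPC-1 siRNA libraries, against 4.02 and 5.94 CPM in AsPC-1 controls. Every siRNA library lay below both controls, as for 25.4% of all genes tested in AsPC-1, at 27.9% of control (log2 fold change -1.84). These are 18, 20 and 12 counts with siRNA against 53 and 67 in controls, and the log2 fold change ran from -2.12 without AsPC-1 control 1 to -1.54 without AsPC-1 control 2. PANC-1 siRNA libraries had 32.9, 32.3 and 33.3 CPM, against 38.01, 33.04 and 35.1 CPM in PANC-1 controls. The PANC-1 groups overlapped and the siRNA mean was 92.7% of control (log2 fold change -0.11). The lines differed by -1.72 on the log2 scale (AsPC-1 minus PANC-1), which is the difference MAPK8IP2 was picked for and is given with no test.

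MAPK8IP1, which encodes JIP1, a JNK scaffold and the closest relative of JIP2, was low in AsPC-1. The gene (ENSG00000121653; GRCh38 chr11:45885651-45906465, plus strand) had 15, 11 and 14 counts in AsPC-1 siRNA libraries, against 15 and 22 in AsPC-1 controls, or 0.904 to 1.26 CPM against 1.14 and 1.95 CPM. The groups overlapped, and the log2 fold change of -0.47 had an SE of 0.36 (edgeR adjusted p = 0.349), and it ran from -0.84 to -0.05 when 1 library was left out. The level in PANC-1 was 12.6, 15.55 and 10.5 CPM in siRNA libraries, against 11.5, 9.54 and 11.6 CPM in controls. Those groups overlapped too (log2 ratio 0.25, SE 0.14; edgeR adjusted p = 0.303). The processed pseudogene MAPK8IP1P2 had 9 to 19 counts in AsPC-1 siRNA libraries and 8 in each AsPC-1 control, close to those of MAPK8IP1, so the AsPC-1 values of MAPK8IP1 are uncertain. Its exons also overlap the antisense gene AC068385.1, which had 0 counts in every library.

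MAPK8IP3, which encodes JIP3, a scaffold that also links cargo to kinesin motors, was the most abundant of the scaffolds among the members. The gene (ENSG00000138834; GRCh38 chr16:1706183-1770317, plus strand) was at 126.5, 128 and 112 CPM in AsPC-1 siRNA libraries, against 116 and 112 CPM in AsPC-1 controls (log2 ratio 0.08, SE 0.05; edgeR adjusted p = 0.223). In PANC-1 it was at 102, 99.0 and 102.5 CPM in siRNA libraries, against 94.1, 87.6 and 105 CPM in controls (log2 ratio 0.08, SE 0.07; edgeR adjusted p = 0.514). The groups overlapped in both lines. Its exons overlap those of NME3 on the other strand, which was at 45.8 ± 2.0 CPM in AsPC-1 siRNA libraries and 37.1 ± 2.9 CPM in AsPC-1 controls, and at 48.0 ± 4.0 and 41.9 ± 4.4 CPM in those of PANC-1 (SD, n = 3, 2, 3 and 3). Whether counting used strand is not stated, so reads of the overlap cannot be told apart.

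The scaffolds stood in different proportions in the lines. MAPK8IP3 made up 95.6 ± 0.32% of the summed TPM of the 3 scaffolds in AsPC-1 siRNA libraries and 89.6 ± 3.1% in AsPC-1 controls, and 51.6 ± 2.2% and 50.5 ± 2.0% in those of PANC-1. MAPK8IP2 made up 1.86 ± 0.35% with siRNA and 6.80 ± 1.8% in controls in AsPC-1, and 29.2 ± 1.2% with siRNA and 32.7 ± 1.8% in controls in PANC-1. JIP3 transcripts were thus nearly the whole of the set in AsPC-1. By union exon length they were about as many as those of JIP1 and JIP2 together in PANC-1, which depends on the length used. By the longest transcript of each gene, the MAPK8IP3 share was 64.3% and 63.4% in PANC-1 siRNA and control libraries, and 97.3% and 93.6% in those of AsPC-1. With no division by length the MAPK8IP3 share of the counts was 98.0% and 94.6% in AsPC-1 siRNA and control libraries, and 68.9% and 67.3% in those of PANC-1.

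Counted over the members, few were called after siRNA. In AsPC-1, 2 of the 7 tested members were called by edgeR at an adjusted p under 0.05, MAP2K3 higher and MAPK14 lower, against 32.9% of the 14304 genes tested in that line. DESeq2 called 1 of the same 7. In PANC-1, 1 of 8 was called, MAP2K4 lower, against 9.08% of 14929 genes, and DESeq2 called 0 of 8, with 1 at an unadjusted p under 0.05. For the difference in response between the lines 0 of 7 were called, against 4.36% of 16680 genes (2.28% higher and 2.07% lower). None of the 7 had an unadjusted p under 0.05 for that difference, and DESeq2 also called 0. The members' counts were thus near the background in both lines.

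**Figure D3:**
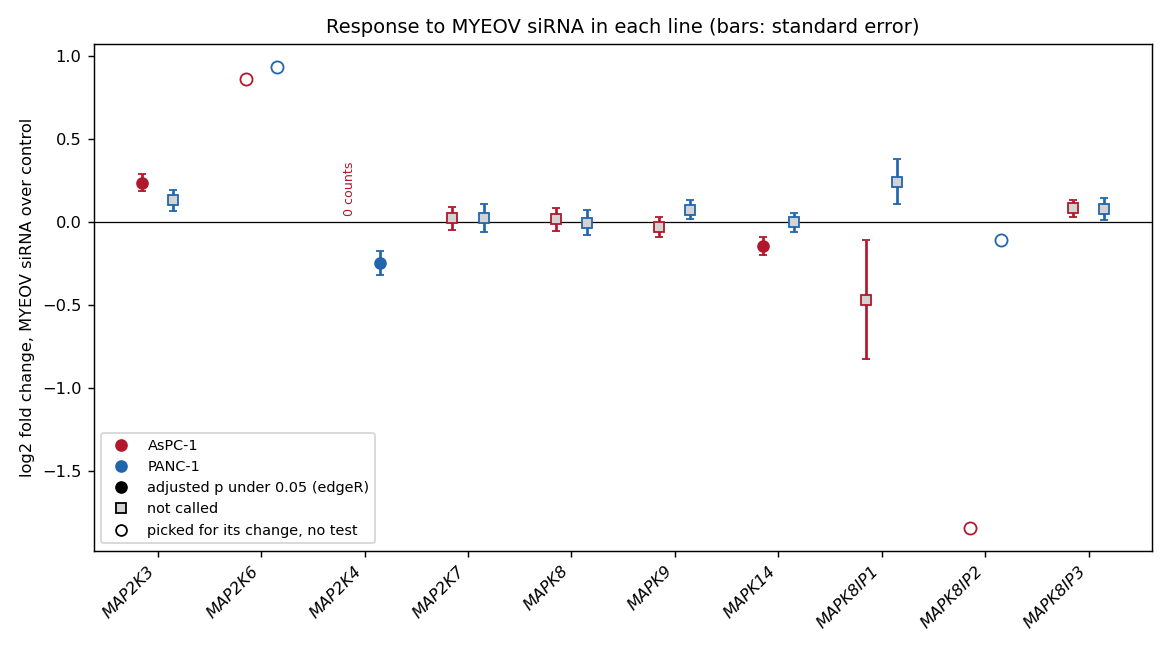
Log2 fold change of MYEOV siRNA over control (vertical axis) for each of the 10 genes, AsPC-1 left of PANC-1, with the SE where a test was made. Filled circles are adjusted p under 0.05 by edgeR, squares were not called, and open circles are MAP2K6 and MAPK8IP2, which were picked for their change. Apart from these, the fold changes lie between -0.47 and 0.25.

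In control libraries 5 of the 8 members with a test were called between AsPC-1 and PANC-1, 1 higher and 4 lower in AsPC-1, against 77.2% of the 16680 genes tested (35.9% higher and 41.2% lower). The contrast shares its control libraries with the siRNA comparisons on which MAP2K6 and MAPK8IP2 were picked, so both are described here with no test. With MAP2K4 at its bound, the median log2 fold change of the 8 was -0.26, against -0.07 over all genes tested. With only 8 members tested, the count called was near the background.

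MAP2K4, MAPK8IP1 and MAPK8IP2 showed the largest differences. MAPK8IP2 averaged 4.98 ± 1.4 CPM in AsPC-1 controls (SD, n = 2) and 35.4 ± 2.5 CPM in PANC-1 controls (SD, n = 3), or 13.9% of the PANC-1 level (log2 ratio -2.85, no test). MAPK8IP1 averaged 1.54 ± 0.57 CPM in AsPC-1 controls and 10.9 ± 1.1 CPM in PANC-1 controls, or 14% (log2 ratio -2.84, SE 0.24; edgeR adjusted p = 3.70e-10). SYP, a neural and endocrine vesicle gene on the marker list, was also lower in AsPC-1, at 1.06 to 1.51 CPM in AsPC-1 controls and 16.6 to 20.1 CPM in PANC-1 controls. Its part in the difference of these scaffolds was not tested.

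The JNKs were lower in AsPC-1 by less. MAPK8 averaged 32.5 ± 0.84 CPM in AsPC-1 controls and 50.2 ± 4.8 CPM in PANC-1 controls (64.9%; log2 ratio -0.63, SE 0.08; edgeR adjusted p = 4.75e-07). MAPK9 averaged 50.8 ± 2.9 CPM in AsPC-1 controls and 67.5 ± 1.0 CPM in PANC-1 controls (75.3%; log2 ratio -0.41, SE 0.06; edgeR adjusted p = 3.40e-06). MAP2K6 averaged 3.81 ± 0.13 CPM and 5.92 ± 1.3 CPM in the same groups (64.2%; log2 ratio -0.64, no test). No library of AsPC-1 controls reached the lowest PANC-1 control for any of these 3 genes. The same was true of 44.3% of all genes tested, and 38.7% had every AsPC-1 control above every PANC-1 control.

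MAP2K3, MAP2K7 and MAPK14 were not called between the controls. Their log2 ratios were 0.02 (SE 0.06; edgeR adjusted p = 0.808) for MAP2K3, 0.16 (SE 0.09; edgeR adjusted p = 0.1) for MAP2K7 and -0.11 (SE 0.06; edgeR adjusted p = 0.111) for MAPK14. MAP2K7 was called without PANC-1 control 1 (edgeR adjusted p = 0.0294) and MAPK14 with upper-quartile scaling (edgeR adjusted p = 0.0179). MAPK8IP3 was the member called higher in AsPC-1, at 114 ± 2.6 CPM in AsPC-1 controls and 95.5 ± 8.7 CPM in PANC-1 controls (log2 ratio 0.26, SE 0.07; edgeR adjusted p = 0.00221). That direction holds on the CPM scale. On the TPM scale, which divides by all transcripts of the library per length, MAPK8IP3 was at 28.8 ± 0.14 TPM in AsPC-1 controls and 34.8 ± 3.0 TPM in PANC-1 controls, the other way round, and MAP2K7 likewise at 22.5 ± 0.21 and 29 ± 2.2 TPM. MAP2K3, level between the lines in CPM, was at 47.8 ± 0.53 TPM in AsPC-1 controls and 68.2 ± 2.2 TPM in PANC-1 controls, and MAPK14 at 25.2 ± 0.22 and 39.2 ± 1.4 TPM.

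The siRNA libraries gave the same comparison in other samples. It came from the joint fit of all 11 libraries, so the controls still enter its filter, scaling and estimate of spread. There 8 of 8 members with a test were called between the lines, 3 higher and 5 lower in AsPC-1, against 79.3% of all genes tested (37.4% higher and 41.9% lower), and DESeq2 called 7 of 8. The 3 higher in CPM, MAP2K3, MAP2K7 and MAPK8IP3, were lower in AsPC-1 on the TPM scale, at 55.5 ± 0.17, 22.5 ± 1.8 and 30 ± 2.3 TPM in AsPC-1 siRNA libraries and 75.4 ± 4.7, 29.8 ± 2.6 and 37.3 ± 1.0 TPM in PANC-1 siRNA libraries. MAPK8IP1 stood at -3.54, MAPK8 at -0.59, MAPK9 at -0.50 and MAPK8IP3 at 0.27 on the log2 scale (edgeR adjusted p = 1.17e-12, 1.63e-07, 2.86e-08 and 0.000404). MAPK14 was also lower in AsPC-1 with siRNA (log2 fold change -0.24; edgeR adjusted p = 0.000462). MAP2K3 at 0.14 and MAP2K7 at 0.17 passed narrowly (edgeR adjusted p = 0.0279 and 0.0493), and lost the call in 5 and 8 of 13 alternative fits. MAP2K6 stood at -0.70 and MAPK8IP2 at -4.56, given with no test.

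**Figure D4:**
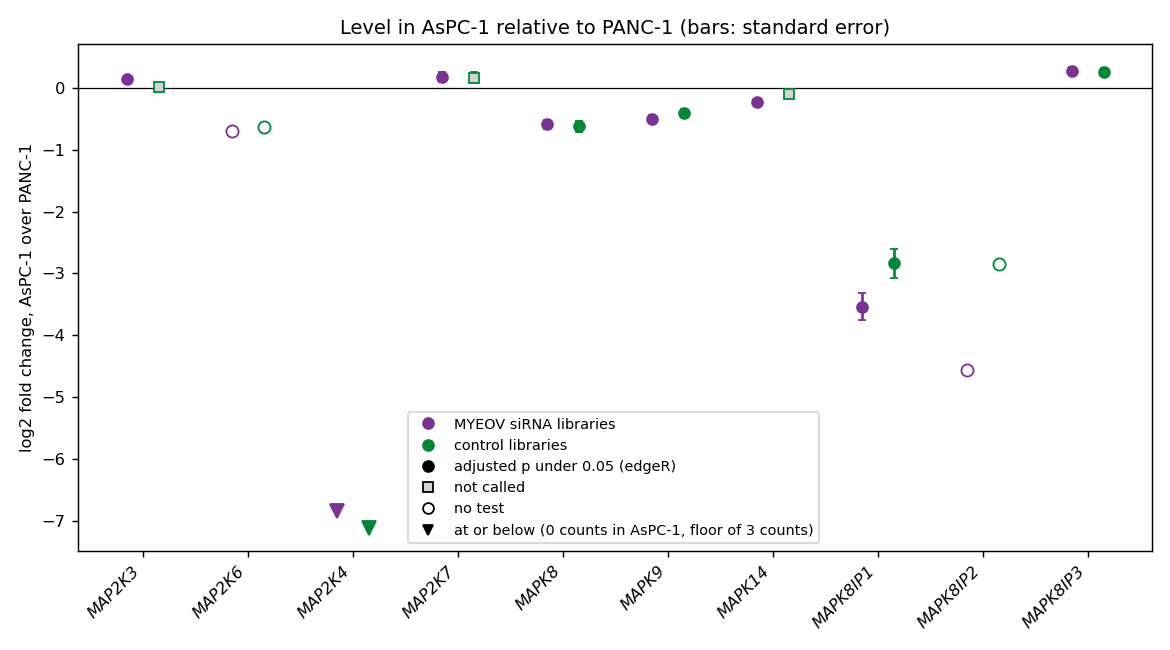
Log2 fold change of AsPC-1 over PANC-1 (vertical axis) for each gene, siRNA libraries left of control libraries, with the SE where a test was made. Triangles are bounds for MAP2K4, which had 0 counts in AsPC-1, and open circles have no test. MAPK8IP1 and MAPK8IP2 lie between -2.84 and -4.56 while the other genes with counts in both lines lie between -0.70 and 0.27.

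Members also differed in how far replicates spread. The within-group SD on the log2 scale was 0.037 for MAPK9 and 0.044 for MAPK14. It was 0.062 to 0.112 for MAP2K3, MAPK8, MAPK8IP3 and MAP2K7, and 0.175 to 0.279 for MAP2K6, MAPK8IP2 and MAPK8IP1. Apart from MAP2K4, the last 3 are also the members with the fewest counts. The SD of MAP2K4, 0.049, pools AsPC-1 libraries that all had 0 counts, so it understates the spread in PANC-1.

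The genes whose pattern over the 11 libraries was most like that of MAP2K6 were FAM222B, COL13A1 and ZBED3, with a root mean square difference of log2 CPM, each gene centred on its mean, of 0.227, 0.249 and 0.25, against a median of 0.684 over 13473 protein-coding genes. FAM222B averaged 51.8 ± 4.3 CPM in AsPC-1 siRNA libraries and 30 ± 1.6 CPM in AsPC-1 controls, and 66.5 ± 7.4 and 44.2 ± 1.6 CPM in those of PANC-1. The genes most like MAPK8IP2 were ZNF697, SLC6A9 and C7orf31, at 0.235, 0.247 and 0.346 against a median of 1.975. In AsPC-1 siRNA libraries they had 7 to 9, 4 to 11 and 2 counts, near the floor. Genes picked as the nearest lie below the median by choice, for MAP2K6 as well. SLC6A9, a glycine transporter gene, averaged 0.719 ± 0.34 CPM in AsPC-1 siRNA libraries and 2.23 ± 0.48 CPM in AsPC-1 controls, and 14.5 ± 1.7 and 13.5 ± 1.5 CPM in those of PANC-1. The 11 libraries share 2 lines and 1 treatment, so genes can be alike through either.

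Around the members, 54 other genes of the JNK and p38 pathways were listed in 6 classes, of which 53 were tested; MAPK10 (JNK3), the neural JNK, had at most 7 counts in a library. In AsPC-1, 13 of the 53 were higher and 6 lower with siRNA, against 16.6% of all genes higher and 16.3% lower, with a median log2 fold change of 0.04 against 0.00 over all genes. In PANC-1, 2 were higher and 1 lower, against 4.16% and 4.92%, with a median of 0.08. The list's counts were near the background in both lines. The same shares over all genes are the background for the siRNA counts of each class below.

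Upstream MAP3K genes went both ways in AsPC-1, with 4 higher and 3 lower of 17. The largest were MAP3K2, which encodes MEKK2, at 148 ± 2.8 CPM with siRNA and 108 ± 5.4 CPM in controls (log2 ratio 0.43, SE 0.04; edgeR adjusted p = 2.41e-08), and MAP3K20, which encodes the ribosome stress kinase ZAK, at 156 ± 7.9 and 116 ± 0.99 CPM (log2 ratio 0.42, SE 0.05; edgeR adjusted p = 9.65e-08). None of the 17 was called in PANC-1.

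Among transcription factors 4 of 11 were higher and 1 lower in AsPC-1. ELK4, an ETS factor that acts with SRF, rose to 82.7 ± 2.8 CPM in AsPC-1 siRNA libraries, against 44.1 ± 0.37 CPM in AsPC-1 controls (log2 ratio 0.89, SE 0.06; edgeR adjusted p = 4.56e-12). MEF2A, a p38 substrate, fell to 36.8 ± 2.8 CPM, against 50.7 ± 2.0 CPM in controls (log2 ratio -0.48, SE 0.07; edgeR adjusted p = 6.39e-06). In PANC-1 MEF2D alone was called, at 0.20 (SE 0.06, edgeR adjusted p = 0.0452), a call lost in 9 of 14 alternative fits. MEF2D was also called higher in AsPC-1, at 0.25 (SE 0.05, edgeR adjusted p = 0.000834).

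Scaffolds and adaptors other than the members counted 2 higher and 1 lower of 7 in AsPC-1. TAB3, an adaptor of TAK1, stood at 0.33 (SE 0.08; edgeR adjusted p = 0.00151, and 0.0635 without AsPC-1 control 2). ARRB2, an arrestin that can hold JNK3, stood at 0.36 (SE 0.11; edgeR adjusted p = 0.0115), and its call was lost with DESeq2 and without AsPC-1 control 2. None of the 7 was called in PANC-1.

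Kinases below p38 counted 2 higher and 1 lower of 7 in AsPC-1. MKNK1, which encodes a kinase of the translation factor eIF4E, stood at -0.31 (SE 0.08; edgeR adjusted p = 0.00391, and 0.0534 without AsPC-1 control 1). MAPKAPK3 stood at 0.19 (SE 0.06; edgeR adjusted p = 0.0237), a call lost in 5 of 13 alternative fits. In PANC-1 MKNK2, the paralog of MKNK1, stood at 0.34 (SE 0.08, edgeR adjusted p = 0.0157, and 0.081 without PANC-1 siRNA 1). MKNK2 was also called higher in AsPC-1, at 0.16 (SE 0.04, edgeR adjusted p = 0.00225). That call was lost with 1 fit over all 4 groups and without AsPC-1 control 2.

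Of the 8 phosphatases, 1 was called in each line. DUSP1, a feedback phosphatase of p38 and JNK, stood at 0.44 in AsPC-1 (SE 0.12; edgeR adjusted p = 0.00726), a call lost with DESeq2 and without AsPC-1 control 1. DUSP22 fell in PANC-1 to 27.5 ± 0.77 CPM, against 34.7 ± 0.73 CPM in controls (SD, n = 3 each; log2 ratio -0.34, SE 0.07; edgeR adjusted p = 0.0083), and this call held in 14 of 14 alternative fits.

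Between the control libraries of the lines, 15 of the 53 listed genes were higher and 25 lower in AsPC-1, against 35.9% and 41.2% of all genes tested. Of the other p38 kinases, MAPK11 (p38β) and MAPK12 (p38γ), singled out after their values were seen, were both lower there. MAPK13 was not called, at 3.61 ± 1.0 CPM in AsPC-1 controls and 3.12 ± 1.1 CPM in PANC-1 controls (log2 ratio 0.19, SE 0.27, edgeR adjusted p = 0.52). MAPK11 averaged 25.7 ± 2.5 CPM in AsPC-1 controls and 78.7 ± 5.2 CPM in PANC-1 controls, and MAPK12 averaged 25.9 ± 1.7 and 59.5 ± 4.6 CPM (edgeR adjusted p = 6.20e-13 and 8.34e-12). Per length, MAPK11 stood at 24.8 ± 3.1 TPM in AsPC-1 controls, beside 25.2 ± 0.22 TPM for MAPK14, and at 110 ± 6.3 TPM in PANC-1 controls, beside 39.2 ± 1.4 TPM for MAPK14. By union exon length, MAPK11 transcripts thus exceeded those of MAPK14 in PANC-1 controls and were level with them in AsPC-1 controls. This depends on the length used. With no division by length, MAPK14 averaged 66.5 CPM in AsPC-1 controls, above MAPK11, and 71.7 CPM in PANC-1 controls, closer to MAPK11. Of the kinases below p38, 5 of 7 were called higher in AsPC-1 controls on the CPM scale and none lower. On the TPM scale RPS6KA4 turned, at 75.4 ± 2.6 TPM in AsPC-1 controls and 91.5 ± 4.7 TPM in PANC-1 controls, and MKNK2 was close to level at 108 ± 0.85 and 103 ± 13 TPM.

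**Figure D5:**
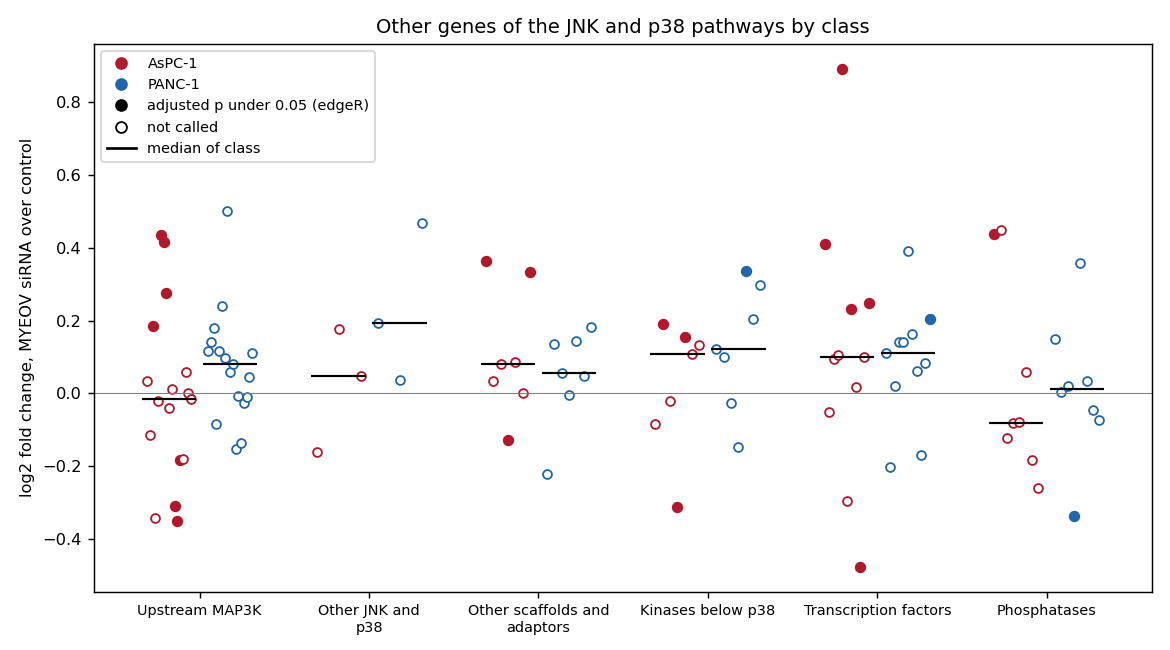
Log2 fold change of MYEOV siRNA over control (vertical axis) for 53 other genes of the JNK and p38 pathways in 6 classes, AsPC-1 left of PANC-1, with the median of each class (line). Filled points have an adjusted p under 0.05 by edgeR: 19 in AsPC-1, of which ELK4 at 0.89 is the highest, and 3 in PANC-1.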

How the data were processed

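Each library has 1 table of raw whole-number counts per gene, which the authors deposited without normalization. Per the labels' protocols, libraries were poly(A)-selected and read as pairs of 150 bases by Illumina sequencing. Per the submitters' processing notes the tools were HISAT2 and HTSeq and the build hg19; neither versions nor a strand setting are given there. All 58735 identifiers matched GENCODE release 29, whose GRCh38 positions are given here since the tables hold none; 0 rows lacked a gene name. Sequences were read from that annotation's transcripts.

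Counts of all genes were tested in R 4.3.3 by edgeR 4.0.16 (filterByExpr, TMM scaling, two-sided quasi-likelihood test, Benjamini-Hochberg adjustment over all genes tested, threshold 0.05). For siRNA against control the fit used the libraries of that line alone. Comparisons between lines and of the responses came from 1 fit of 4 groups. The spread between replicates beyond counting noise (edgeR's BCV), which may be technical here, came to 2.77% for AsPC-1, 6.08% for PANC-1 and 4.99% in the joint fit. TPM used union exon lengths, except where the longest transcript is named. DESeq2 1.42.0, other scalings, other filters, a replicate block and leaving out each library were alternatives; leaving length out of the shares was added after seeing the data. The fits were tested on simulated data. No replicate pair agreed within sampling noise (chi-square per degree of freedom 1.62 to 5.47). Text names the 10 members, MYEOV, and, per pathway class and line, at most 2 called genes with the largest fold change after siRNA. Beyond these, MEF2D and MKNK2, called in PANC-1, are also given for AsPC-1. MAPK10, MAPK11, MAPK12, MAPK13 and RPS6KA4 are named for their levels. The members, the pathway list, the markers and the word were chosen with earlier results of these data known. MAP2K6 and MAPK8IP2, whose values the choice used, were given no test in any comparison.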

Additional observations from a re-analysis of the deposited data

Results flagged for a closer look

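The response to MYEOV siRNA differed between the lines for 4 of the named genes by the interaction test of edgeR (AsPC-1 minus PANC-1, adjusted p under 0.05): MYEOV and 3 of the 53 pathway genes, against 4.36% of all 16680 genes tested. The pathway genes are also those named for the largest called changes within AsPC-1. ELK4, the ETS factor, differed by 0.76 on the log2 scale (value 0.763, SE 0.13; adjusted p = 0.00124): it averaged 82.7 ± 2.8 CPM with siRNA and 44.1 ± 0.37 CPM in controls in AsPC-1 (SD, n = 3 and 2), and 62.7 ± 6.9 and 57.0 ± 7.9 CPM in PANC-1 (SD, n = 3 each). This call held in all 18 alternative fits, with an adjusted p of at most 0.0426. ARRB2 differed by 0.60 (SE 0.13; adjusted p = 0.00977), with 20.0 ± 2.0 and 15.3 ± 2.4 CPM in AsPC-1 siRNA and control libraries and 35.8 ± 0.72 and 41.7 ± 1.8 CPM in those of PANC-1, and the call was lost without AsPC-1 control 2 (edgeR adjusted p = 0.12). MAP3K20 differed by 0.33 (SE 0.09; edgeR adjusted p = 0.034), with 156 ± 7.9 and 116 ± 0.99 CPM in AsPC-1 and 234 ± 1.2 and 219 ± 23 CPM in PANC-1. Its call was lost with the replicate block (edgeR adjusted p = 0.12) and without any of 7 single libraries, among them AsPC-1 control 1 (0.164) and AsPC-1 siRNA 1 (0.102). MYEOV itself differed by -0.59 (SE 0.10; edgeR adjusted p = 0.00153), the depletion being deeper in AsPC-1.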

How the results depend on the processing

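In AsPC-1, 2 members were called, and 1 with no low-count filter, with DESeq2, and with 1 fit over all 4 groups, since MAPK14 was lost. In PANC-1, 1 member (MAP2K4) was called, and 0 with RLE scaling, upper-quartile scaling, no low-count filter, DESeq2 and the replicate block. Leaving out 1 library gave 1 to 3 members in AsPC-1 and 0 to 1 in PANC-1.

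The number of genes called in PANC-1 was 1356, and 538 to 1712 without 1 library: 538, 876 and 863 without PANC-1 siRNA 1, 2 and 3, and 1712 without PANC-1 control 2. For the difference in response it was 727, and 305 to 1056 without 1 library: 305 and 315 without AsPC-1 control 1 and 2, 475 without PANC-1 siRNA 1, and 1056 without PANC-1 control 2. The replicate block lowered these counts to 628 and 241. Samples of the same number did not deviate together (correlations of -0.095 to -0.016 between siRNA and control libraries of a line, and of 0.012 and 0.014 between the controls of the lines), so the numbers do not pair the libraries.

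Signs turned only for values near 0, and the cause was not tested. In PANC-1 MAPK14 was at 0.001 with RLE scaling and DESeq2 and 0.011 with upper-quartile scaling, where MAPK8 was at 0.008. For the difference in response, MAP2K7 was at -0.001 with RLE scaling and DESeq2 and -0.012 with upper-quartile scaling, and MAPK8IP3 at -0.005 with upper-quartile scaling. Between controls, MAP2K3 was at -0.04 with upper-quartile scaling, -0.004 with no filter and -0.008 with the block. Without 1 library, AsPC-1 MAP2K7 ran from -0.032 to 0.075, MAPK8 from -0.001 to 0.036 and MAPK9 from -0.075 to 0.027. PANC-1 MAP2K7 ran from -0.021 to 0.098, MAPK8 from -0.069 to 0.067 and MAPK14 from -0.031 to 0.018. For the difference, MAP2K7 ran from -0.061 to 0.063, MAPK8 from -0.061 to 0.099 and MAPK8IP3 from -0.056 to 0.076, and between controls MAP2K3 from -0.021 to 0.056. MAPK8IP3 gained a call in AsPC-1 with the block (edgeR adjusted p = 0.0261) and without siRNA 3 (0.0227). Counts under 25 limit MAPK8IP1 in all AsPC-1 libraries and MAPK8IP2 in those with siRNA.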
